A study of Mus musculus with 20 samples.

Results

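The genes examined were 10 enzymes and regulators of fatty acid synthesis, desaturation and phospholipid remodeling, measured in the cecum of mice fed a Western-type diet with increasing amounts of resistant potato starch (RPS). They were Acly, Acaca, Fasn and Me1, which lead from citrate to fatty acids, Elovl6, Scd1 and Scd2, which elongate and desaturate the product, the regulator Srebf1, and Lpcat1 and Lpcat3, which remodel phospholipids. They were taken by symbol from the 19887 genes of the count table, and all 10 passed the filter on low counts that left 15348 genes. The mice were C57BL/6 animals. From 3 weeks of age all of them ate the total Western diet (TWD), first without RPS for 6 weeks and then with 0, 2, 5 or 10% RPS mixed in for 3 weeks. There were 5 mice on each of the 4 diets, 20 in all, so the control mice also ate the TWD throughout. The TWD is a rodent diet built to match typical American nutrient intake, and RPS is raw starch that largely escapes digestion and is fermented by microbes in the cecum. The RNA came from tissue sections of the cecum, whose contents had been collected. The labels do not say which mice shared a cage or a litter, and p-values measure the spread between these mice.

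De novo lipogenesis starts when ATP citrate lyase (Acly) splits citrate exported from mitochondria into acetyl-CoA. Acetyl-CoA carboxylase (Acaca) makes malonyl-CoA, and fatty acid synthase (Fasn) builds palmitate from it with NADPH, part of which malic enzyme (Me1) supplies. Elovl6 lengthens palmitate to stearate, the stearoyl-CoA desaturases Scd1 and Scd2 place the first double bond, and the transcription factor SREBP-1, encoded by Srebf1, drives the genes of this chain. Lysophosphatidylcholine acyltransferases put a new fatty acid on a lysophospholipid. Lpcat1 favors saturated chains and is best known from lung surfactant and inflammatory cells, while Lpcat3 favors polyunsaturated chains, is a target of the liver X receptors and is needed for lipid export from the intestinal epithelium.

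Total counts per mouse were between 14967798 and 42687283, and the smallest count of a member was 310, for Lpcat1 in a mouse fed 2% RPS. Values below are CPM, which are counts relative to the TMM-adjusted size of each library, and the mice of each diet are given in the order 1 to 5. Epithelial markers were high in every library: the summed level of 10 colon and cecum epithelial genes was between 26134.6 and 44995.9 CPM. Markers of other cells varied between mice. The summed level of 10 adipocyte genes lay between 128.6 and 524.6 CPM, and that of 6 B and plasma cell genes between 55.4 and 536.5 CPM. The median of the adipocyte sums was 272.6 CPM at 0% and 149.2 CPM at 10% RPS. These sums rest mostly on Fabp4, Cidec, Plin4 and Lipe, with means of 74.9, 70.1, 52.1 and 45.3 CPM at 0% RPS. Adipoq, Plin1 and Lep had 10.6, 5.51 and 3.13 CPM there. Between 10 and 0% RPS these 3 genes did not differ detectably (adjusted p = 0.830, 0.738 and 0.861 by edgeR's quasi-likelihood test). Mean Cidec was 35.9 CPM and mean Lipe 54.6 CPM at 10% RPS. In RNA from tissue of mixed cells, fewer cells of a type and less RNA per cell cannot be told apart.

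The promoters of Lpcat1 and Me1 are shown because these genes stand for patterns described below: Lpcat1 was higher in mice fed 10% RPS, and Me1 had a negative log2 fold change that did not pass the test. Each sequence is the 250 bases before the start of the canonical transcript on GRCm39, written 5′ to 3′ on the gene's strand. Capitals mark matches, on either strand, to the E-box CACGTG, the sterol response element TCACNCCAC, the CCAAT box CCAAT, the GC box GGGCGG, the nuclear receptor hexamer AGGTCA, and the antioxidant response element TGACNNNGC. The windows are chr13:73615066-73615315 on the plus strand for Lpcat1 and chr9:86578105-86578354 on the minus strand for Me1.
Lpcat1: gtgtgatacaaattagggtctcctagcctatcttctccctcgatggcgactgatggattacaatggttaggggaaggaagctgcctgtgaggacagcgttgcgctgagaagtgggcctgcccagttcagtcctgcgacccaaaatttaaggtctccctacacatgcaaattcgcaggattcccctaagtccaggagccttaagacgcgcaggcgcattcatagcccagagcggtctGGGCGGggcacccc
Me1: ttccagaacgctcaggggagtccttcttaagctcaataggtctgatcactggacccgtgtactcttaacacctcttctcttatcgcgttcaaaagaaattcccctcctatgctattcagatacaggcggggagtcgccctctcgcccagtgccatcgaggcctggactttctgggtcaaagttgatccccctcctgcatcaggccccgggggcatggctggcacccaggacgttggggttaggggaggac
The Lpcat1 window held 1 GC box, which ends 9 bases before the transcript, and the Me1 window held no match to any of the 6 motifs. GC boxes were found in 45.8% of the 15336 promoters of tested genes, CCAAT boxes in 35.5%, the nuclear receptor hexamer in 12%, the antioxidant response element in 10.5%, the E-box in 7.2% and the sterol response element in 1.16%. A match describes the letters in this window and not a bound site.

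Of the 10 members, 1 passed the threshold of an adjusted p of at most 0.05 and a fold change of at least 1.5 between mice fed 10 and 0% RPS, which was Lpcat1, higher in mice fed 10% RPS. The share called was 1.04% of all genes tested (edgeR's quasi-likelihood test with Benjamini-Hochberg adjustment over 15348 genes, used for every adjusted p of a gene between diets). Lpcat3 reached an adjusted p of 0.0251 with a fold change below 1.5, and 1.86% of all genes reached that p at any fold. By direction, 0.547% of all genes were called higher and 0.495% lower. At an unadjusted p under 0.05 there were 3 members, Lpcat1, Lpcat3 and Me1, beside 19.5% of all genes. The mice of the 2 diets did not overlap in 2 members, Lpcat1 and Lpcat3, nor in 4.88% of all genes. The median log2 fold change of the members was −0.11, with 2 above and 8 below 0, and that of all genes was 0.0041. The count of 1 was 0 without mouse 5 on 0% RPS or mouse 3 on 10% RPS, and it was 2, with Me1 added, without mouse 4 on 10% RPS or mouse 4 on 2% RPS.

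**Figure D1:**
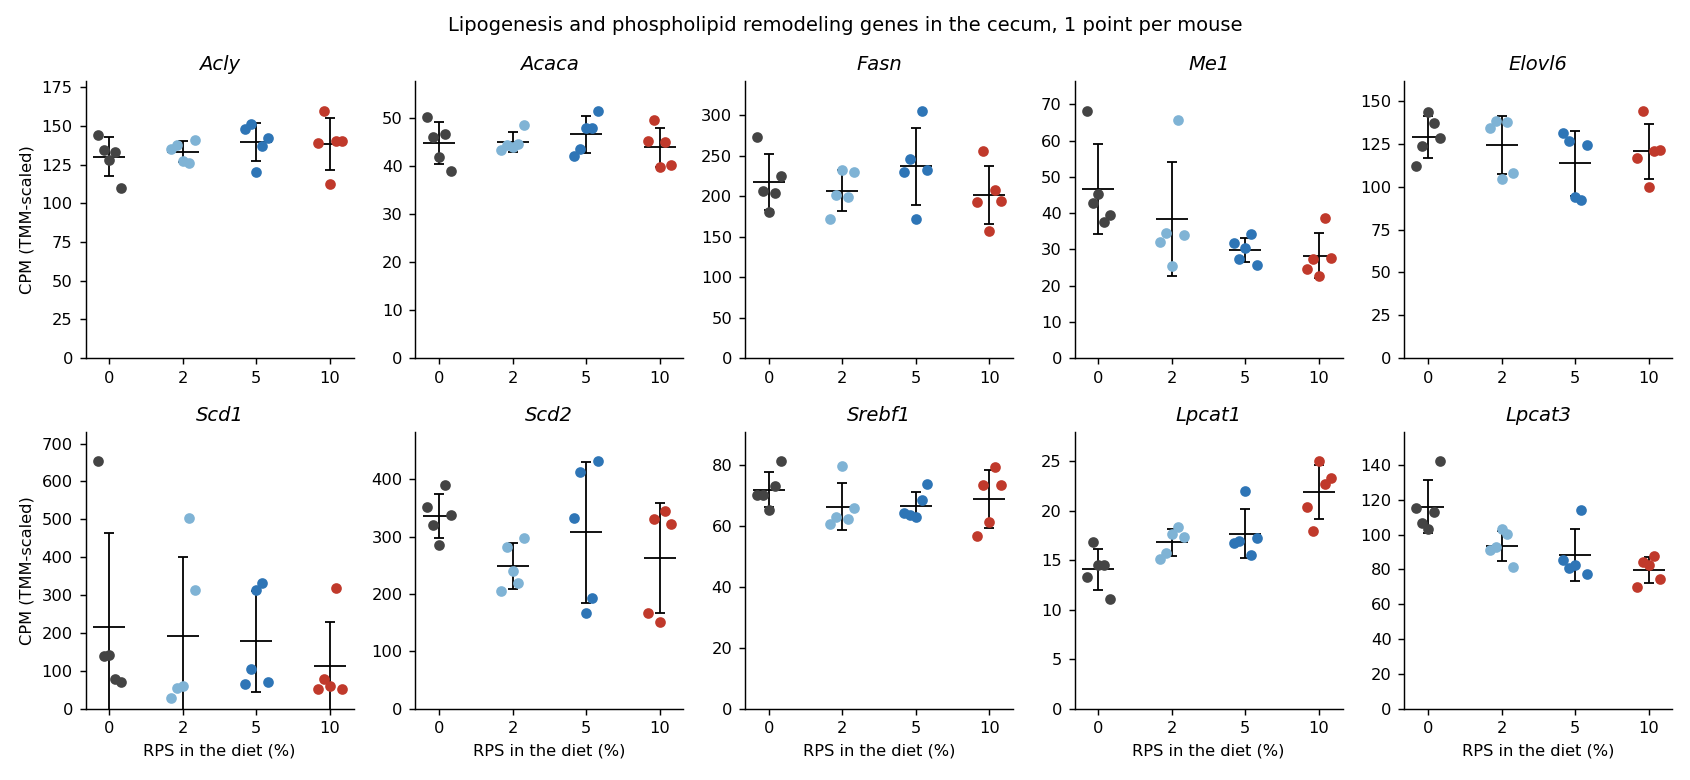
CPM of each member (vertical axes, linear from 0) against the percentage of RPS in the diet, 1 point per mouse, with the mean and SD of the 5 mice as bars; lower SD bars that would pass 0 are cut there. Lpcat1 rises from 11.1 to 16.8 CPM at 0% RPS to 17.97 to 24.97 CPM at 10% RPS, Lpcat3 falls, and Scd1 is at 312.9 CPM or more in 6 mice spread over all diets.

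Lpcat1 (ENSMUSG00000021608) spans chr13:73615316-73664580 on GRCm39. The 5 mice fed 0% RPS had 13.3, 16.8, 14.6, 14.5 and 11.1 CPM. Those fed 10% RPS had 20.3, 17.97, 24.97, 22.7 and 23.3 CPM. Every mouse fed 10% RPS was above every mouse fed 0% RPS, a separation seen upward in 1.68% of all genes. Mean Lpcat1 was 14.1 ± 2.09 CPM at 0% and 21.8 ± 2.73 CPM at 10% RPS (SD, n = 5 each). The log2 fold change was 0.64 (SE 0.117, 95% interval 0.39 to 0.88, adjusted p = 0.0177). Mice fed 2% RPS had 15.1, 15.7, 17.6, 18.3 and 17.3 CPM, and those fed 5% RPS had 16.7, 16.9, 22.01, 15.5 and 17.2 CPM. The means of these diets, 16.8 ± 1.35 and 17.7 ± 2.50 CPM, lay between the others, and both groups overlapped the mice fed 0% RPS. The log2 fold change against 0% RPS was 0.26 (SE 0.117, unadjusted p = 0.0384, adjusted p = 0.849) at 2% and 0.33 (SE 0.117, unadjusted p = 0.0107, adjusted p = 0.194) at 5%. Over the dose, Lpcat1 rose by 0.058 on the log2 scale for each percent of RPS (SE 0.0107, adjusted p = 0.0263). The difference between 10 and 5% RPS was 0.31 (SE 0.116, unadjusted p = 0.0156) and was not called. Leaving out mouse 3 on 10% RPS gave 0.59 with an adjusted p of 0.076, and without mouse 5 on 0% RPS the log2 fold change was 0.57, below the fold limit, with an adjusted p of 0.0395. The trend had an adjusted p of 0.0583, 0.0627, 0.0593 and 0.0967 without mice 1 and 4 on 0% RPS and mice 1 and 3 on 10% RPS, respectively.

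Lpcat1 moved with the B and plasma cell markers. Across the 20 mice its log2 CPM correlated with the score of these markers at Pearson's r = 0.745 (permutation p = 0.00014, adjusted p = 0.0028 over 40 relations of members with marker scores) and Spearman's rho = 0.684 (permutation p = 0.00115, adjusted p = 0.023). Without the 2 mice farthest from the median score r was 0.672, and within diets it was 0.692. The summed B and plasma cell level was between 55.4 and 446.1 CPM at 0% RPS, with a median of 174.2, and between 270.5 and 491 CPM at 10% RPS, with a median of 399. No marker of this list was at 0 in all mice of a diet. With the score as a covariate, chosen after seeing the data, the difference between 10 and 0% RPS was 0.45 with an adjusted p of 0.0772, which is not past the threshold. With the epithelial score it was 0.55 (adjusted p = 0.0696), and with the smooth muscle score, also added later, 0.74 (adjusted p = 0.0929). Over all alternatives the adjusted p for Lpcat1 was between 7.24e-05 and 0.0929. Lpcat1 also went inversely with the epithelial score, at r = −0.571 (permutation p = 0.00824, adjusted p = 0.0636) and rho = −0.504 (permutation p = 0.0255, adjusted p = 0.1455). That r was −0.609 without the 2 mice farthest from the median score and −0.48 within diets. The part of cell makeup in the Lpcat1 difference was not otherwise tested.

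Lpcat3 (ENSMUSG00000004270), at chr6:124639765-124684440, went the other way. The mice fed 0% RPS had 115, 106, 103, 113 and 142 CPM. The mice fed 10% RPS had 69.7, 84.4, 82.5, 87.7 and 74.5 CPM. All 5 mice fed 10% RPS were below all 5 fed 0% RPS, which was so downward for 3.2% of all genes. Mean Lpcat3 was 116 ± 15.3 CPM at 0% and 79.8 ± 7.42 CPM at 10% RPS (SD, n = 5 each). The log2 fold change was −0.54 (SE 0.108, 95% interval −0.77 to −0.32, adjusted p = 0.0251), 1.45-fold lower. Mice fed 2% RPS had 91.1, 92.7, 103, 100.1 and 81.2 CPM, and those fed 5% RPS had 85.5, 80.6, 82.8, 114 and 77.5 CPM. At 2% RPS 1 mouse, and at 5% RPS 1 mouse, lay within the range of the mice fed 0% RPS. The log2 fold change was −0.31 (SE 0.108, unadjusted p = 0.00942, adjusted p = 0.815) at 2% and −0.40 (SE 0.108, unadjusted p = 0.00145, adjusted p = 0.0919) at 5%. The trend of −0.048 per percent of RPS passed the threshold for trends, an adjusted p of at most 0.05 at any fold (SE 0.0106, adjusted p = 0.0366).

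The Lpcat3 trend was called in 11 of the 20 repeats with a single mouse removed. It was lost, with adjusted p between 0.0518 and 0.108, without mice 1, 3, 4 or 5 on 0% RPS, mice 1, 3 or 5 on 10% RPS, mouse 4 on 2% RPS or mouse 1 on 5% RPS. The adjusted p between 10 and 0% RPS was above 0.05 in 5 fits, without mice 4 or 5 on 0% RPS or mice 1, 3 or 5 on 10% RPS, the highest being 0.0816 without mouse 3 on 10% RPS. With each of the 4 marker scores as a covariate it was also above 0.05, the highest being 0.0859 with the epithelial score, where the log2 fold change was −0.45. Over all alternatives the adjusted p was between 0.000782 and 0.0859, and over those other than leaving out a mouse the log2 fold change was between −0.66 and −0.45, against −0.54 as reported. The level of Lpcat3 went with the epithelial score at r = 0.552 (permutation p = 0.0117, adjusted p = 0.0636 over 40 relations) and rho = 0.462 (permutation p = 0.0408, adjusted p = 0.18), and at r = 0.421 without the 2 mice farthest from the median score. Of the 50-base words of the canonical Lpcat3 transcript, 34% lie in transcripts of Emg1 on the opposite strand, and the strand setting of the counting is not given in the sources used here. Emg1 itself had 68.5 CPM at 0% and 59.2 CPM at 10% RPS (log2 fold change −0.21, SE 0.106, adjusted p = 0.278).

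**Figure D2:**
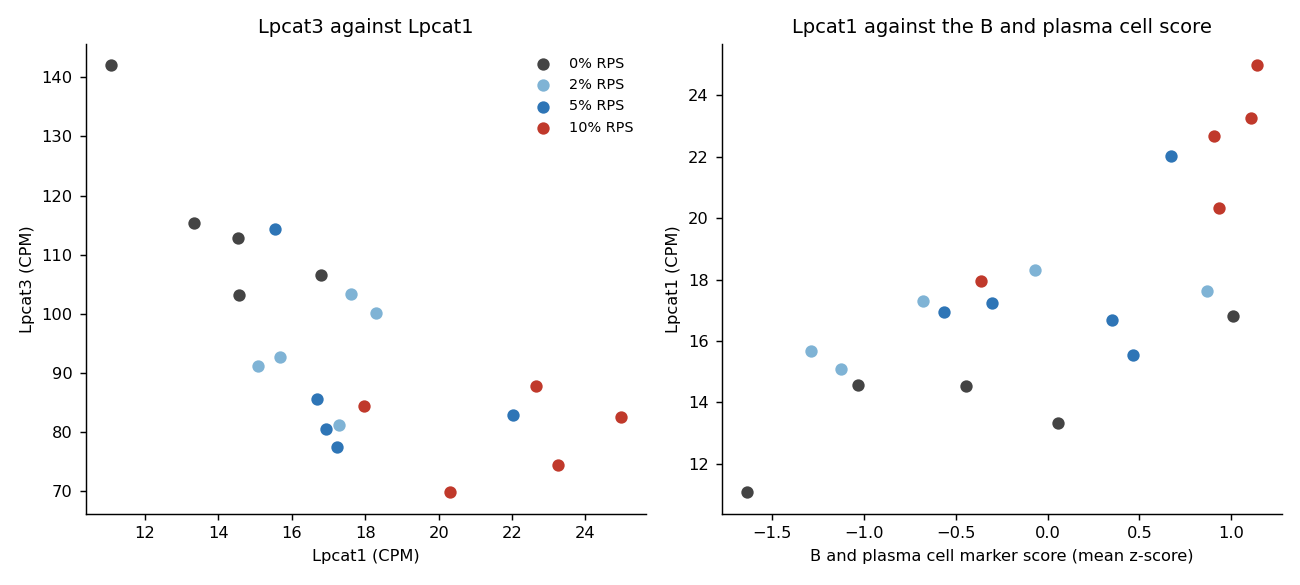
Left, Lpcat3 against Lpcat1 (both CPM), and right, Lpcat1 against the B and plasma cell marker score (mean of z-scores), 1 point per mouse, colored by diet. Mice fed 10% RPS lie at high Lpcat1 and low Lpcat3, and Lpcat1 increases with the score (r = 0.745 over 20 mice).

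The acyltransferases were inversely related across the mice. Lpcat1 and Lpcat3 had r = −0.757 over the 20 mice (permutation p = 0.00012, adjusted p = 0.0054 over the 45 pairs of members) and rho = −0.705 (permutation p = 0.00083, adjusted p = 0.0187). Without the 2 mice farthest from the median of Lpcat1 r was −0.672. Within diets, after the diet means were taken out, r was −0.392 with a permutation p of 0.141, so the relation did not pass the test within diets.

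**Figure D3:**
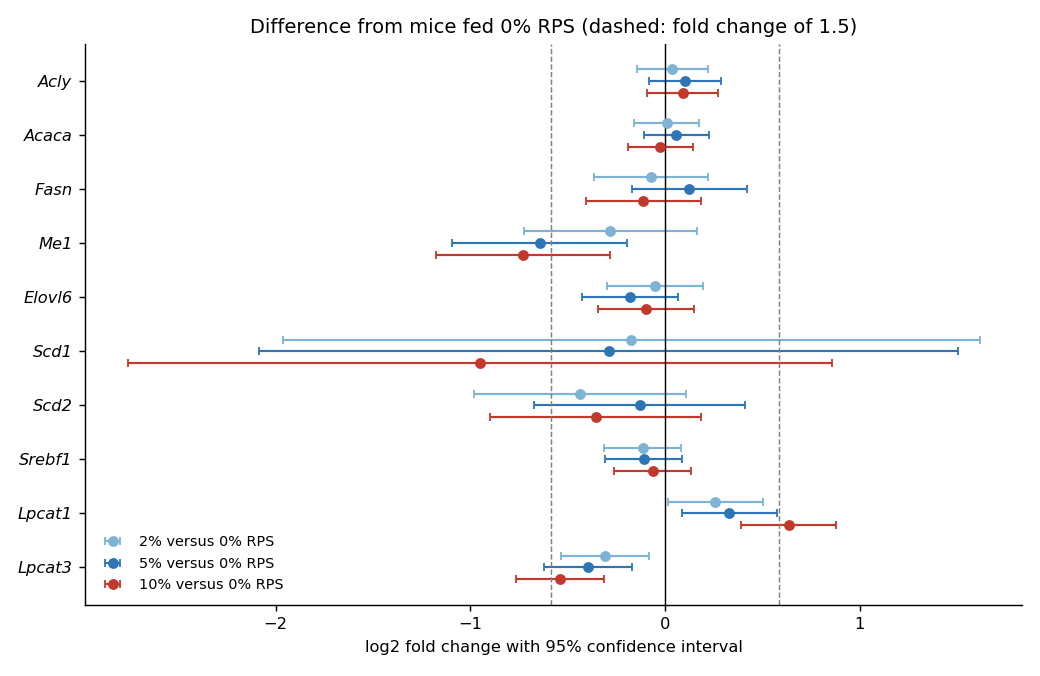
Log2 fold change of each member against mice fed 0% RPS (horizontal axis) with its 95% interval, for 2, 5 and 10% RPS; dashed lines mark a fold change of 1.5. Lpcat1 lies above 0 and Lpcat3 below 0 at each dose, while Acly, Acaca, Fasn, Elovl6 and Srebf1 stay near 0 and Scd1 has the widest intervals.

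The enzymes from citrate to palmitate differed little between diets. Acly had 144, 135, 128, 133 and 110 CPM in mice fed 0% RPS and 139, 159.8, 113, 140 and 140.2 CPM in mice fed 10% RPS. Acaca had 50.3, 45.99, 41.98, 46.6 and 38.9 CPM at 0% RPS and 45.1, 49.6, 39.8, 45 and 40.3 CPM at 10% RPS. Fasn had 273, 207, 181, 204 and 225 CPM at 0% RPS and 193, 256, 158, 207 and 194 CPM at 10% RPS. The groups overlapped widely in all 3 genes. The percent difference at 10% RPS was 6.38 for Acly (95% interval −6.34 to 20.8), −1.75 for Acaca (−12.5 to 10.3) and −7.50 for Fasn (−24.6 to 13.5), with adjusted p of 0.617, 0.898 and 0.704. A 1.5-fold change in either direction is outside each of these intervals. Acly and Acaca were also the steadiest members between mice, with a coefficient of variation over the 20 mice of 9% and 7.81%, against 16.8% for Fasn. Acaca shares 52.6% of the 50-base words of its transcript with Gm5182, which has no row in the count table, so its level could depend on how reads mapping to both were treated.

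Me1 (ENSMUSG00000032418; chr9:86462646-86578104) was the member of this chain with lower values on RPS. Mice fed 0% RPS had 68.2, 42.8, 45.2, 37.5 and 39.3 CPM. Mice fed 2% RPS had 32.02, 34.6, 25.4, 65.8 and 34 CPM. Mice fed 5% RPS had 31.7, 27.2, 30.4, 34.2 and 25.6 CPM, and mice fed 10% RPS had 24.6, 27.3, 22.6, 38.6 and 27.7 CPM. All mice fed 5% RPS were below all mice fed 0% RPS, as in 2.04% of all genes, whereas mouse 4 on 10% RPS lay within the 0% range. Against 0% RPS, Me1 was at a log2 fold change of −0.28 (SE 0.213, adjusted p = 0.919) at 2%, −0.64 (SE 0.215, unadjusted p = 0.00715, adjusted p = 0.169) at 5% and −0.73 (SE 0.215, unadjusted p = 0.00293, adjusted p = 0.0778) at 10% RPS. None of these passed the threshold, nor did the trend of −0.071 per percent (SE 0.020, adjusted p = 0.0733). Over the alternatives the adjusted p at 10% RPS was between 0.021, with DESeq2, and 0.219, and it was 0.0357 without mouse 4 on 10% RPS. Of the 50-base words of its transcript, 51% lie in opposite-strand transcripts of Rwdd2a, which was counted at 0.822 CPM at 0% and 0.813 CPM at 10% RPS.

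The mice with the highest Me1, mouse 1 on 0% RPS and mouse 4 on 2% RPS, also had the most of the adipocyte genes. Me1 correlated with the adipocyte score at r = 0.649 (permutation p = 0.0015, adjusted p = 0.02 over 40 relations) and rho = 0.587 (permutation p = 0.0073, adjusted p = 0.0584), at r = 0.661 without the 2 mice farthest from the median score, and at r = 0.770 within diets. With the adipocyte score as a covariate the difference at 10% RPS was −0.53, against −0.73 without it. Me1 also went with the smooth muscle score, at r = −0.544 (permutation p = 0.0127, adjusted p = 0.0636) and rho = −0.618 (permutation p = 0.00441, adjusted p = 0.0519). That r was −0.626 without the 2 mice farthest from the median score and −0.201 within diets. With the epithelial score r was 0.472 (permutation p = 0.0347, adjusted p = 0.139).

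Elovl6 did not differ detectably between diets. It had 112, 124, 144, 137 and 128 CPM at 0% RPS and 117, 144, 99.99, 121 and 121 CPM at 10% RPS, a percent difference of −6.56 (95% interval −21.2 to 10.9, adjusted p = 0.691). The sign of this difference turned with the B and plasma cell or the smooth muscle score as a covariate, to 0.064 on the log2 scale in both.

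Scd1 was the member that varied most between mice, by 22.9-fold from lowest to highest. Mice fed 0% RPS had 653, 141, 143, 79.03 and 70.1 CPM. Those fed 2% RPS had 28.5, 55.4, 60.5, 503 and 314 CPM, those fed 5% RPS 66.1, 105, 313, 333 and 71.99 CPM, and those fed 10% RPS 52.7, 79.6, 60.4, 318 and 52.6 CPM. The mice fell into 14 with 28.5 to 142.7 CPM and 6 with 312.9 to 653 CPM. The 6 were spread over all diets, 1 each at 0 and 10% RPS and 2 each at 2 and 5% RPS. The log2 fold change between 10 and 0% RPS was −0.95 with an SE of 0.858 (adjusted p = 0.579), and without mouse 1 on 0% RPS it was 0.056. Its 95% interval, −2.76 to 0.86, does not exclude a change of 1.5-fold in either direction.

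The 6 mice with high Scd1 were the 6 with the most adiponectin (Adipoq) and perilipin 1 (Plin1), which define adipocytes. Adipoq was between 14.8 and 36.1 CPM in these 6 mice and between 0 and 9.30 CPM in the other 14. Plin1 was between 9.71 and 17.9 CPM in the 6 mice and between 0 and 4.69 CPM in the 14. Leptin (Lep) overlapped between them, at 1.35 to 10.1 CPM and 0 to 5.44 CPM. Within the 14 mice Scd1 correlated with the adipocyte score at r = 0.723 (permutation p = 0.00208) and rho = 0.714 (permutation p = 0.0056), and at r = 0.548 without the 2 mice farthest from the median. Within the 6 mice r was 0.651 (permutation p = 0.208) and −0.418 without the 2 mice farthest from the median. Adipoq was at 0 in mouse 1 on 2% RPS and mouse 5 on 10% RPS, where a count of 0 allows up to 0.146 and 0.113 CPM, and Scd1 was still at 28.5 and 52.6 CPM there. With the adipocyte score as a covariate the difference in Scd1 between 10 and 0% RPS was −0.08.

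Scd2 did not follow Scd1. It had 351, 320.2, 285, 389 and 337 CPM at 0% RPS, 205, 282, 239, 218 and 297 CPM at 2%, 332, 413, 166, 194 and 431 CPM at 5%, and 166, 330, 151, 344 and 321 CPM at 10% RPS. Mice 3 and 4 on 5% RPS, with high Scd1, had lower Scd2 than the other 3 mice of that diet, and mouse 4 on 10% RPS had the highest Scd2 of its diet. In both high-Scd1 and other mice the range of Scd2 was wide, 166.1 to 351 CPM and 151.1 to 430.9 CPM. Between 10 and 0% RPS Scd2 was at −0.36 on the log2 scale (SE 0.26, adjusted p = 0.47).

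The share of Scd1 in the reads of both desaturases does not depend on the scaling between libraries. It was 32.6 ± 19.6% at 0% RPS, 33.99 ± 25.3% at 2%, 35.9 ± 25.96% at 5% and 26.8 ± 13% at 10% RPS (SD, n = 5 each). In single mice it ranged from 12.2% (exact 95% binomial interval 11.3 to 13.2%), in mouse 1 on 2% RPS, to 69.7% (69.1 to 70.3%), in mouse 4 on 2% RPS. These intervals cover counting error only. The differences from 0% RPS were 1.39, 3.33 and −5.79 percentage points at 2, 5 and 10% RPS, with two-sided exact permutation p of 0.937, 0.905 and 0.611 and an adjusted p of 0.937 for all 3. With 5 mice a group the smallest p this test allows is 0.00794. The transcripts share 2.91% of the 50-base words of Scd1, so few reads could have been assigned to either gene.

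**Figure D4:**
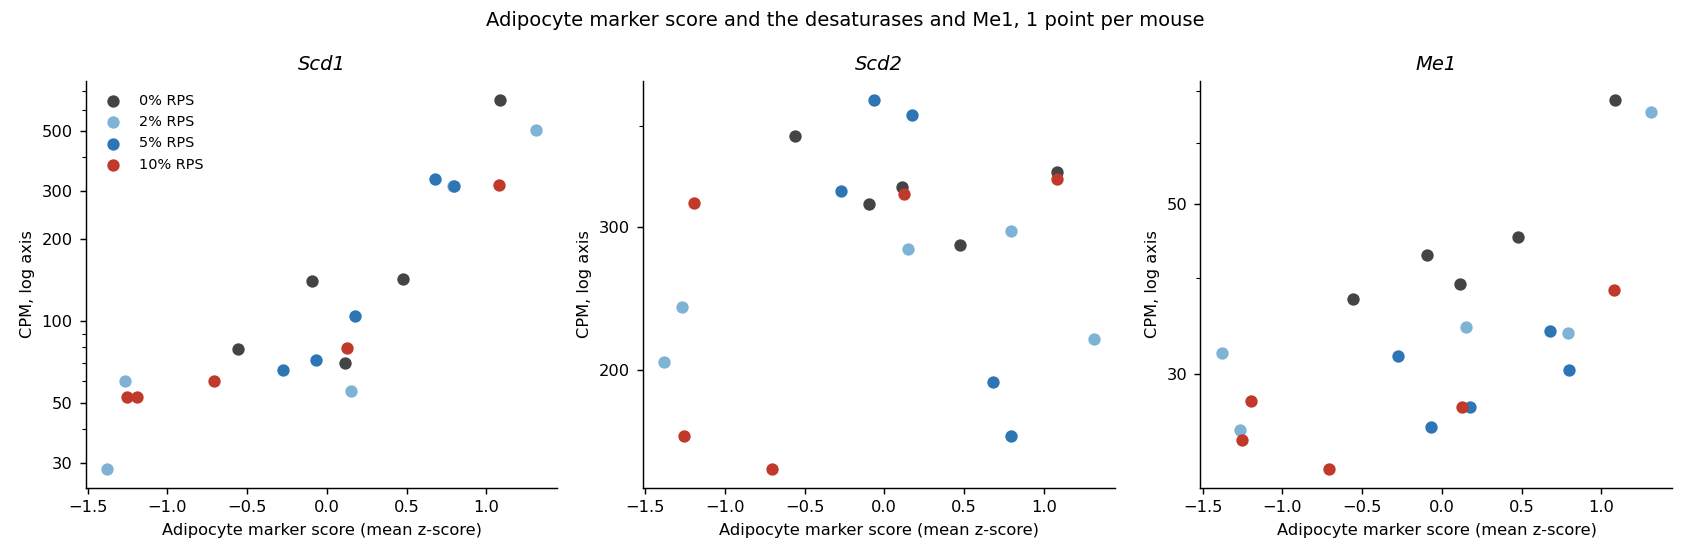
CPM of Scd1, Scd2 and Me1 (vertical log axes) against the adipocyte marker score (mean of z-scores of 10 genes), 1 point per mouse, colored by diet. The 6 mice with 312.9 CPM or more of Scd1 have scores of 0.681 to 1.31, above the 0.475 or less of the other 14, and come from all 4 diets, and high Scd2 is found at low and high scores.

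Srebf1, whose product is the main activator of these genes, was steady. It had 69.9, 69.96, 65.2, 73.2 and 81.1 CPM at 0% RPS and 56.5, 73.5, 61.2, 79.2 and 73.4 CPM at 10% RPS. Mice fed 2% RPS had 60.7 to 79.6 CPM and mice fed 5% RPS 63.0 to 73.6 CPM, and all diets overlapped. The percent difference at 10% RPS was −4.38 (95% interval −16.5 to 9.55, adjusted p = 0.75), which does not include a 1.5-fold change.

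In the other pairwise comparisons made, of 5 and 2% with 0% RPS and of 10 with 5% RPS, no member was called. The 10 and 5% diets were not compared with 2% RPS here. Between 5 and 0% RPS 0 of 10 members passed the threshold by edgeR or by DESeq2, and edgeR called 0.195% of all genes, 0.0977% higher and 0.0977% lower, with 0.254% at an adjusted p of at most 0.05 and any fold. At an unadjusted p under 0.05 there were 3 members there, against 13.3% of all genes: Lpcat1 higher, where 6.74% of all genes were, and Lpcat3 and Me1 lower, where 6.54% were. Me1 was the 1 member without overlap between those diets, against 3.57% of all genes. Between 2 and 0% RPS the members called were 0 by edgeR or DESeq2, with 0% of all genes called by edgeR, and 2 members had an unadjusted p under 0.05, against 5.77% of all genes. Lpcat1 was higher, where 2.58% of all genes were, and Lpcat3 lower, where 3.19% were, and all 10 members overlapped between those diets, where 1.09% of all genes did not (0.417% higher and 0.671% lower). Between 10 and 5% RPS the count was 0 by edgeR or DESeq2, with 0% of all genes called. Lpcat1 alone had an unadjusted p under 0.05 and was higher, against 2.79% of all genes, 1.64% higher and 1.15% lower. No member was without overlap there, against 0.515% of all genes (0.254% higher and 0.261% lower).

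For a difference among the 4 diets of any shape the count was 0 by edgeR, with 0.0912% of all genes called, and 2 by DESeq2, Lpcat1 and Lpcat3, and 3 members had an unadjusted p under 0.05, against 11.1% of all genes. The linear trend was called for Lpcat1, upward, and Lpcat3, downward, with 1.11% of all genes called, 0.378% upward and 0.73% downward. At an unadjusted p under 0.05 the trend held 3 members, against 18.8% of all genes, 9.37% upward and 9.47% downward. The comparisons with 0% RPS share the same 5 control mice.

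Levels can be compared between genes per length of the canonical transcript, as RPKM, which divides CPM by the transcript length in kilobases. Over the 20 mice Scd2 was the most abundant member, at 52.9 ± 15.3 RPKM (SD, n = 20), followed by Lpcat3 at 39.9 ± 7.49, Scd1 at 34.8 ± 34.5, Acly at 30.7 ± 2.76, Fasn at 20 ± 3.37, Elovl6 at 19.9 ± 2.59, Srebf1 at 15.8 ± 1.60, Me1 at 8.58 ± 2.97, Lpcat1 at 4.79 ± 0.957 and Acaca at 4.74 ± 0.370 RPKM. The ranges of all neighbors in this order of means overlapped. The place of Scd1 rests on its 6 high mice: it was above Acly in 6 of the 20 mice, and its median was 15.8 RPKM against 31.1 for Acly. Per canonical transcript, Acly was above Fasn in all 20 mice, and Me1 above Lpcat1 in 19. The order depends on this choice of length, since the counts are per gene. All annotated exons together span 14575 bases in Acly and 11706 in Fasn, against canonical lengths of 4410 and 10789. Acly had the lower mean CPM, 135.3 against 215.8, so by the length of all exons it would stand below Fasn. In Lpcat3 these lengths are 7956 and 2364 bases. Fasn was above Elovl6 in 8 mice, so this pair does not differ beyond its spread. Lpcat1 was above Acaca in 9 mice, but their order turned with the diet: the mean of Lpcat1 was below that of Acaca at 0% RPS, 3.83 against 4.70 RPKM, and above it at 10% RPS, 5.94 against 4.62 RPKM. Per length, Lpcat3 stood at 49.1 ± 6.49 RPKM and Lpcat1 at 3.83 ± 0.568 RPKM at 0% RPS, and at 33.7 ± 3.14 and 5.94 ± 0.742 RPKM at 10% RPS (SD, n = 5 each).

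Few pairs of members passed the test for varying together. Of the 45 pairs, 2 passed an adjusted p of 0.05 for Pearson's r: Lpcat1 with Lpcat3, and Me1 with Scd1. No pooled value is given for Me1 and Scd1 because the mice fall into 2 clusters of Scd1. Within the 14 mice with low Scd1 r was 0.471 (permutation p = 0.089) and rho 0.411 (permutation p = 0.145). Within the 6 mice r was 0.951 (permutation p = 0.00994) and rho 0.943 (permutation p = 0.0165), but r was 0.220 without the 2 mice farthest from the median, so it rests on those mice. After the diet means were taken out, Me1 with Scd1 was the 1 pair of the 45 that passed (adjusted p = 0.0225), a test that also spans both clusters. By Spearman's rho the pairs that passed were Lpcat1 with Lpcat3 and Me1 with Lpcat3, and Me1 with Scd1 did not. Me1 and Lpcat3 had rho = 0.714 (permutation p = 0.00078, adjusted p = 0.0187) and r = 0.607 (permutation p = 0.00449, adjusted p = 0.0674), with r = 0.644 without the 2 mice farthest from the median of Me1 and 0.206 within diets (permutation p = 0.363). Fasn and Srebf1 had r = 0.411 (permutation p = 0.0714, adjusted p = 0.195) and rho = 0.558 (permutation p = 0.0117, adjusted p = 0.0656), with r = 0.498 without the 2 farthest mice.

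By Pearson's r of log2 CPM over the 20 mice among the other 15347 genes, the genes most like each of 5 members were named as a description. For Scd1 the first 5 in this order were Car5b, Trf, Mrap, Abcd2 and Trarg1, and no value is given because the order spans both clusters of Scd1. Those nearest to Lpcat3 were Gpi1 (0.952), Ctnnd1 (0.937), S100a1 (0.931), Tnfrsf1a (0.929) and Hras (0.925). Those nearest to Me1 were Cers2 (0.896), Cldnd1 (0.885), Plscr1 (0.866), Cry1 (0.865) and Wars1 (0.863). Fasn was nearest to Pcsk6 (0.764), Fbxl19 (0.753), Kbtbd4 (0.752), Dnajc2 (0.749) and the glycerol-3-phosphate dehydrogenase Gpd1 (0.743), and Srebf1 to Gli1 (0.849), Yeats4 (0.793), Rps6ka4 (0.790), Capn10 (0.790) and Ostf1 (0.784). All points share the 20 libraries and their cell makeup.

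The surrounding pathway was described by 8 lists of 94 genes, of which 89 were tested. Between 10 and 0% RPS, 1 of the 89 passed the threshold, Dgat2, and 2 had an adjusted p of at most 0.05, Dgat2 and Acsl3, both lower with RPS. These counts are near the shares of 1.04% and 1.86% over all genes. At an unadjusted p under 0.05 there were 4 higher and 17 lower, where 9.74% and 9.75% of all genes were higher and lower. In 11 of the 89 genes all mice fed 10% RPS lay below all mice fed 0% RPS, and in 0 above, where 3.2% and 1.68% of all genes did so. The median log2 fold change of the 89 genes was −0.05, and that of all genes 0.0041. In the linear trend 3 genes were called, Acsl3, Dgat2 and Pparg, all downward, where 1.11% of all genes were called and 0.73% downward.

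Dgat2, which makes triglyceride from diacylglycerol, had 194, 201, 279, 224 and 242 CPM at 0% RPS and 79.8, 108, 119.8, 167 and 129 CPM at 10% RPS. The groups did not overlap. Dgat2 fell, with a log2 fold change of −0.92 (SE 0.196, adjusted p = 0.0272), while at 5% RPS it was −0.90 (SE 0.196, adjusted p = 0.0534). Without mice 3, 4 or 5 on 0% RPS or mice 1, 2 or 3 on 10% RPS the log2 fold change was between −0.92 and −0.80. The adjusted p was then between 0.0533 and 0.0819, so the call was lost. It was also lost with each of the 4 marker scores as a covariate, at an adjusted p of 0.0572 with the adipocyte, 0.102 with the epithelial, 0.108 with the B and plasma cell and 0.133 with the smooth muscle score, and over all alternatives the adjusted p was between 0.000558 and 0.133. Among the 14 tested triglyceride synthesis genes 5 were lower and 1 higher at an unadjusted p under 0.05, where 9.75% and 9.74% of all genes were, and the list median was −0.22.

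Acsl3, which activates long-chain fatty acids and sits on lipid droplets, had 666, 552, 734, 666 and 617 CPM at 0% RPS and 480.5, 453, 433, 459.7 and 408 CPM at 10% RPS, with no overlap. Its log2 fold change was −0.53 (SE 0.0804, adjusted p = 0.00603), −0.44 (SE 0.0803, adjusted p = 0.0377) at 5% and −0.37 (SE 0.0803, unadjusted p = 0.000147, adjusted p = 0.428) at 2% RPS. It was below the 1.5-fold limit in each, and with each of the 20 mice left out in turn its adjusted p at 10% RPS was between 0.00176 and 0.0294, and over the other settings between 3.51e-08 and 0.0929. The highest, with the smooth muscle score as a covariate, was the only 1 of those 10 settings above 0.05, at a log2 fold change of −0.48. Acsl1, the next of the 5 acyl-CoA synthetases by p, was at 0.06 (SE 0.0908).

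No gene of the other 6 lists was called between 10 and 0% RPS, and the pair with the lowest p in each is given. Among the 12 regulators these were Pparg, a nuclear receptor of lipid storage, at −0.41 (SE 0.105, adjusted p = 0.0507), and Nr1h3, the liver X receptor alpha, at −0.39 (SE 0.118, adjusted p = 0.0838). In the trend Pparg fell by 0.040 on the log2 scale per percent of RPS (adjusted p = 0.0459). Among the 11 precursor and NADPH genes these were Pgd, an NADPH-forming dehydrogenase, at −0.33 (SE 0.0935, adjusted p = 0.067) and Dlat, a subunit of pyruvate dehydrogenase, at −0.28 (SE 0.0835, adjusted p = 0.079). Among the 10 tested phospholipid remodeling genes they were Lpcat4, a further lysophospholipid acyltransferase, at −0.64 (SE 0.265, adjusted p = 0.199) and Mboat7 at −0.24 (SE 0.119, adjusted p = 0.267). Among the 15 desaturation and elongation genes they were Elovl1 at −0.40 (SE 0.128, adjusted p = 0.0964) and Hacd4 at 0.54 (SE 0.175, adjusted p = 0.105). Among the 6 fatty acid synthesis genes they were Mid1ip1, an activator of acetyl-CoA carboxylase, at −0.42 (SE 0.155, adjusted p = 0.15) and Oxsm at −0.24 (SE 0.119, adjusted p = 0.283). Among the 16 phospholipid synthesis genes they were Pcyt2 at −0.20 (SE 0.121, adjusted p = 0.371) and Ptdss2 at −0.11 (SE 0.0768, adjusted p = 0.427).

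**Figure D5:**
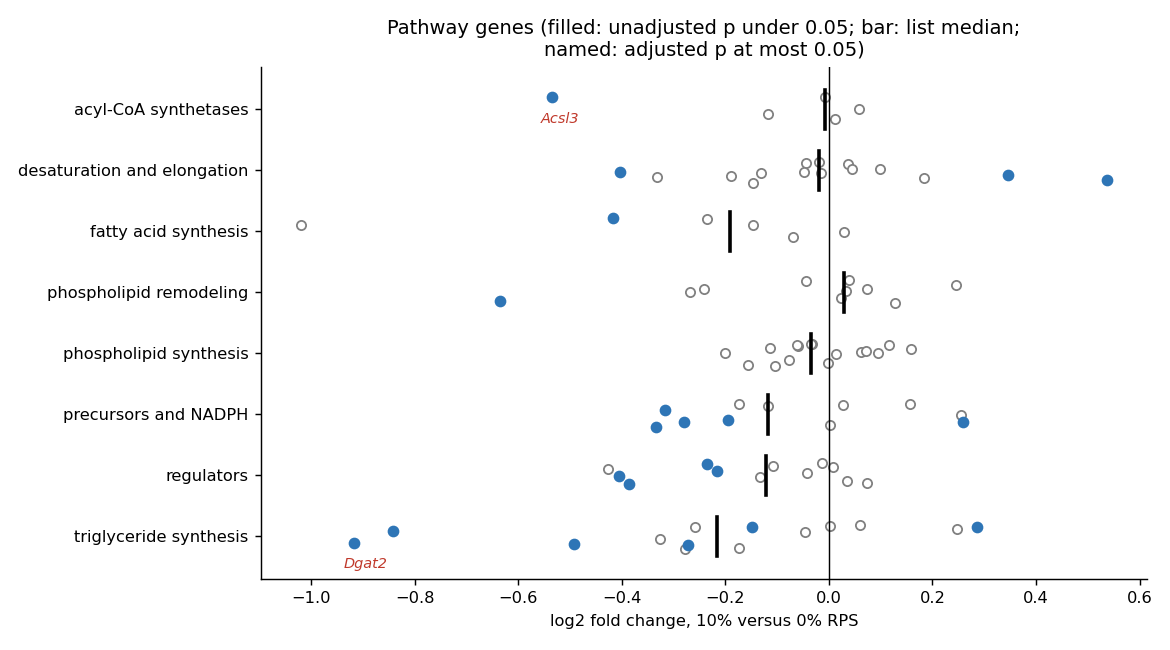
Log2 fold change between mice fed 10 and 0% RPS (horizontal axis) of each tested gene of 8 pathway lists, 1 point per gene; filled points have an unadjusted p under 0.05, bars are list medians, and genes with an adjusted p of at most 0.05 are named. Dgat2 at −0.92 and Acsl3 at −0.53 are the genes named, and the triglyceride synthesis list has the lowest median, −0.22.

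Of the marker lists, smooth muscle and epithelium each held 1 gene called between 10 and 0% RPS, and the others held none. Of all genes 1.04% were called between 10 and 0% RPS, and 9.74% were higher and 9.75% lower at an unadjusted p under 0.05. Between 10 and 0% RPS all 6 smooth muscle markers were at positive values, with 1 called, Actg2 (log2 fold change 1.28, SE 0.3, adjusted p = 0.0358), and 4 at an unadjusted p under 0.05. All 6 goblet cell markers were at negative values, 0 called by edgeR and 4 at an unadjusted p under 0.05. Of the 10 epithelial markers 1 was called, Slc26a3, higher (0.61, SE 0.156, adjusted p = 0.0487), and 3 were lower at an unadjusted p under 0.05. The leukocyte marker Ptprc was at 1.26 (SE 0.509, adjusted p = 0.189). All 5 tested B and plasma cell markers were at positive values, with 0 at an unadjusted p under 0.05. Of the 10 adipocyte markers 8 were at negative values, 0 were called, and 1, Cidec, had an unadjusted p under 0.05. The summed smooth muscle level was between 2440.6 and 5667 CPM at 0% RPS and between 3992.3 and 6692.2 CPM at 10% RPS, and the summed goblet cell level between 6377 and 9125 CPM and between 5591 and 6377 CPM. Between 5 and 0% RPS all 6 smooth muscle markers were higher at an unadjusted p under 0.05, where 6.74% of all genes were. Of these 6, 1 was called there, where 0.0977% of all genes were called higher.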

How the data were processed

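RNA from the cecum of 20 mice, 5 per diet, was sequenced by the authors as stranded poly(A) libraries with single-end reads, mapped to GRCm39 with CLC Genomics Workbench, and counted per gene; the deposited values are raw counts. The submitters' processing notes name GRCm39, and the annotation release, strand setting and handling of reads with several matches are not given in the sources used here. Diets came from the sample labels. Symbols, positions and lengths came from GENCODE release M39, which held 19827 of the 19887 identifiers. The members and lists were chosen with earlier results of these data known.

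Genes were filtered with filterByExpr (minimum count 10, minimum total 15), scaled by TMM and fitted with edgeR 4.0.16 in R 4.3.3 (quasi-likelihood, robust, all 4 diets). The trend used the percentage of RPS. Calls in the trend and for any diet needed an adjusted p of at most 0.05 and had no fold limit. Log2 CPM had a prior count of 2. Marker scores are means of z-scores of log2 CPM over adipocyte, epithelial, B and plasma cell or smooth muscle lists; goblet cell, leukocyte, ileum and clock lists were counted only. Correlations were tested two-sided with 100000 permutations in Python 3.11.15 with scipy 1.17.1. The Scd1 share was compared by exact permutation of mice. None of the 40 pairs of mice on 1 diet had identical counts, and the chi-square per gene between them was 13.6 or more.

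All 10 members were named. In each pathway list every called gene, or else the pair with the lowest p, was named, with the 5 genes nearest to 5 members and the adipocyte markers Adipoq, Plin1 and Lep. The other markers given with values, and the genes sharing sequence with members, were named after their values were seen. Alternatives were DESeq2 1.42.0 (its size factors, or its own Wald and likelihood ratio tests), no filter, no robust step, each marker score or 1 surrogate variable (sva 3.50.0) as a covariate, only the 2 diets compared, no fold limit, dose ranks for the trend, and each mouse omitted in turn. The count models were tested on simulated data. Some items are not reported here. A floor of 3 counts was 0.070 to 0.19 CPM, for counting error only.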

Additional observations from a re-analysis of the deposited data

Results flagged for a closer look

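Among 44 groups of 5 mice examined, 8 held a mouse set apart from the other 4 by more than 0.71 of the group's range (Dixon's ratio). About 1 in 20 groups would be flagged if the values were independent and normally distributed. These values were on a linear scale, and groups of different genes share mice, so that rate is only a guide here. In each flagged group the mouse was the highest of its diet. Mouse 1 on 0% RPS had 653 CPM of Scd1, against 70.1 to 142.7 in the others, and 68.2 CPM of Me1, against 37.5 to 45.2. Mouse 4 on 10% RPS had 317.7 CPM of Scd1, against 52.6 to 79.6. Mouse 4 on 2% RPS had 65.8 CPM of Me1, against 25.4 to 34.6. These 3 mice are among the 6 with the most Adipoq, and its part in the values was not tested beyond the covariate fits. On 2% RPS, Acaca was 48.5 CPM in mouse 5, against 43.4 to 44.7, and Srebf1 79.6 CPM in mouse 3, against 60.7 to 65.9. On 5% RPS, Lpcat1 was 22.01 CPM in mouse 3, against 15.5 to 17.2, and Lpcat3 114.4 CPM in mouse 4, against 77.5 to 85.5.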

How the results depend on the processing

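No paired analysis was possible because the mouse numbers differ between diets. The members called between 10 and 0% RPS, 1 as reported, were 0 with the epithelial, B and plasma cell or smooth muscle score as a covariate, 2 with DESeq2's Wald test (Lpcat1 and Me1) and 2 without a fold limit (Lpcat1 and Lpcat3), and from 0 to 2 with each mouse left out. For any diet they were 0 as reported, 2 with DESeq2 and from 0 to 1 with a mouse left out. In the trend they were 2 as reported, 1 with the adipocyte score, 0 with the epithelial, B and plasma cell or smooth muscle score, and from 0 to 3 with a mouse left out. In the comparisons of 5 and 2% with 0% RPS and of 10 with 5% RPS they were 0 in every alternative run. The correlated pairs, 2 as reported, were 1 within diets and from 1 to 5 with a mouse left out (20000 permutations).

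The Lpcat1 slope was 0.040 with the B and plasma cell score, 0.049 with the epithelial and 0.065 with the smooth muscle score, and the Lpcat3 slope −0.046, −0.049, −0.039 and −0.053 with the adipocyte, B and plasma cell, epithelial and smooth muscle scores, none past the threshold. Me1 was called with DESeq2 at 10% RPS (−0.73) and in the trend (−0.072), and by rank of the dose. Dgat2 was not called with the adipocyte (−0.84), epithelial (−0.82), B and plasma cell (−0.78) or smooth muscle score (−0.69). The sign turned between 10 and 0% RPS for Acaca with the adipocyte score (0.0033), for Elovl6 with the B and plasma cell or smooth muscle score (0.064) and for Acsl1 with the smooth muscle score (−0.012). With a mouse left out, Acaca was between −0.074 and 0.019 and Scd1 between −1.82 and 0.056. The Scd1 share difference at 2% RPS turned to −0.0073 as a log2 ratio, and with a mouse left out it was between −7.55 and 9.49 points at 2%, −4.02 and 11.4 at 5% and −11.1 and 2.32 at 10% RPS. The cause of these changes was not tested. Every member had 310 counts or more in every mouse, and the SE of the log2 fold change at 10% RPS was between 0.0799 for Acaca and 0.858 for Scd1.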

Other observations

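The clock genes, which follow the hour of collection, did not differ detectably between 10 and 0% RPS: 0 of 9 were called by edgeR and 0 had an unadjusted p under 0.05, with 5 above and 4 below 0 and a median log2 fold change of 0.0090. Of 2 genes typical of the ileum, the bile acid transporter Slc10a2 was at 0.90 (SE 0.246, adjusted p = 0.0641). All mice fed 10% RPS were above all mice fed 0% RPS, as in 1.68% of all genes. The mice fed 2 and 5% RPS were also above them, as in 0.417% and 1.53% of all genes. Their lowest values were 83.0 and 86.0 CPM, and the highest at 0% RPS was 78.4 CPM. The other ileum gene, the bile acid binding protein Fabp6, was at −0.85 (SE 0.412, unadjusted p = 0.0525, adjusted p = 0.263 by edgeR). It had 0.504 to 1.35 CPM at 0% and 0.225 to 1.27 CPM at 10% RPS. Neither gene was called.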
